A study of Saccharomyces cerevisiae with 16 samples.

Results

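Transcript levels after acrolein were compared with those after NEM across the genes of budding yeast, on 4 acrolein and 4 NEM arrays out of the 16 arrays of the study. All cells were the haploid Saccharomyces cerevisiae strain BY4741, of mating type a and called wild-type in the sample titles. They were growing exponentially at an early stage in the glucose medium YEPD (30 °C, 250 rpm). The exposure was to 0.05 mM acrolein or to 0.016 mM NEM for 1 h. The study's other arrays, 4 untreated controls and 4 given 0.3 mM H2O2, are used here as reference levels. BY4741 is auxotrophic through deletions of URA3, LEU2, MET17 and part of HIS3, which all groups share. Acrolein is a small unsaturated aldehyde, or enal. The labels give NEM only as that abbreviation; N-ethylmaleimide, a cyclic unsaturated imide, is what it is taken to mean. The doses differ and the labels give no common measure of effect, so every difference below belongs to these doses and ranks neither compound. Whether arrays within a group stem from separate cultures is not in the labels, and the spread behind the p-values may therefore be technical.

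Both compounds are soft electrophiles that add to thiols such as the cysteine of glutathione and of proteins. Yeast meets such compounds with glutathione conjugation and export, with NADPH-dependent reductases and with a thioredoxin system. Many of these genes are under the transcription factor Yap1, which carries reactive cysteines. Damaged proteins are met by chaperones under Hsf1 and by the proteasome, whose genes are under Rpn4. Sulfate assimilation supplies the cysteine from which glutathione is made, and ribosome production and the cell cycle slow in many stresses.

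Values are log2 signals, so a difference of 1 is 2-fold, and each difference is acrolein minus NEM with the standard error (SE) of a limma model over all 16 arrays. A gene was called when its Benjamini-Hochberg adjusted p over all 5774 tested probe sets was under 0.05. The array sets a background: 5.15 is the highest value of probe sets made for another yeast species, and a group with no array above it has its fold given as a bound. Array values are listed in the order of replicates 1 to 4. Arrays that share a replicate number deviated together by their residuals, so the numbers pair the arrays. With 4 arrays per group the median SE of a difference was 0.0859.

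Of the deleted genes, URA3, MET17 and LEU2 read 1.92, the file's lowest value, on all acrolein and NEM arrays. HIS3 read 11.47 to 12.27 on the 8 arrays, and as it is deleted only in part it checks no label. Markers of a cells read 10.8 to 13.5. Among genes of alpha cells, MF(ALPHA)1 read 1.92 too and MF(ALPHA)2 read 1.92 to 2.97. STE3 read 4.57 to 5.42 with acrolein and 4.44 to 5.14 with NEM, around the background, and 6.24 to 7.59 in the control. The alpha-cell gene SAG1, however, read 11.35 to 11.97. Acrolein replicate 1 stood apart in RNA quality, with a mean ribosomal RNA signal of 15.48 against 9.20 to 12.64 on the other 7 arrays. Its 3′ minus 5′ signal, a measure of RNA integrity, was 1.20 against 0.62 to 0.72. Between the groups these measures differed by 0.70 and 0.13 (exact permutation p = 0.8 and 0.543, two-sided, n = 4 per group, smallest possible 0.0286). Paired by replicate number the exact sign-flip p was 1 and 0.75, where 4 pairs allow no less than 0.125. Without acrolein replicate 1 the differences were -0.38 and -0.01. Some counts below are given with and without this array, and counts given once can change without it too.

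**Figure D1:**
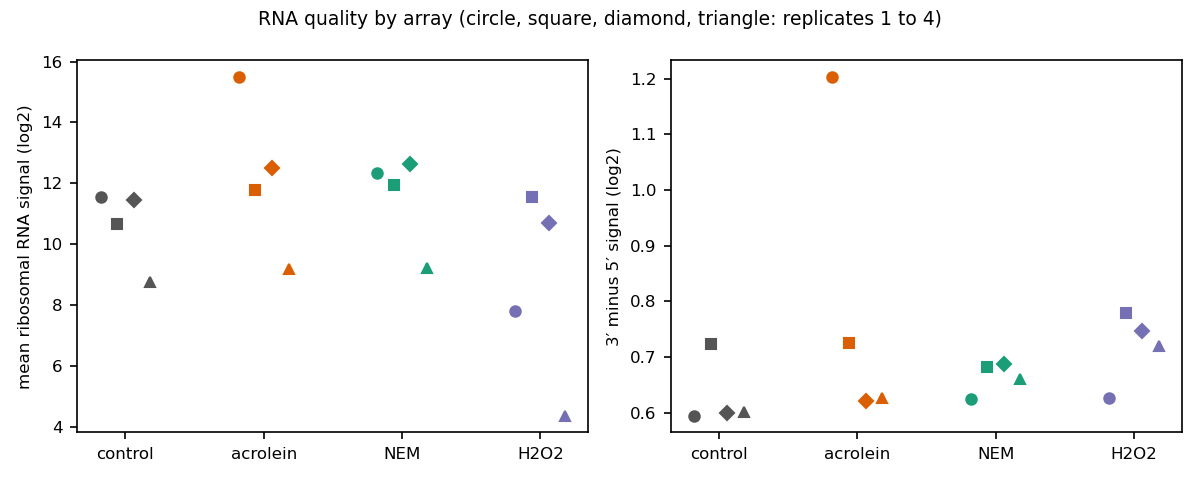
Mean log2 signal of 7 ribosomal RNA probe sets (left) and mean 3′ minus 5′ log2 signal over 7 transcripts (right), 1 point per array by group, with the symbol giving the replicate number. Acrolein replicate 1 lies above the other 15 arrays in both panels, at 15.48 and 1.20.

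The 2 compounds left different transcript levels at about every second gene. Of 5774 probe sets, 2884 (49.9%) were called, 1393 (24.1%) higher with acrolein and 1491 (25.8%) higher with NEM. Without acrolein replicate 1 the count was 2592, with 1323 higher with acrolein and 1269 higher with NEM. Most differences were small: the median size was 0.24 over all tested and 0.41 over those called, and 237 (4.1%) were called at 2-fold or more, 130 (2.25%) higher with acrolein and 107 (1.85%) higher with NEM. For 2323 probe sets (40.2%) the 4 arrays of each group did not overlap, with acrolein above at 1076 (18.6%) and NEM above at 1247 (21.6%). Within pairs of equal replicate number, 2766 of the 2884 called probe sets differed in the same direction in all 4 pairs. Because calls are this frequent, each count for a gene list is to be read against 24.1% and 25.8%, and the median over all probe sets was 0.00.

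**Figure D2:**
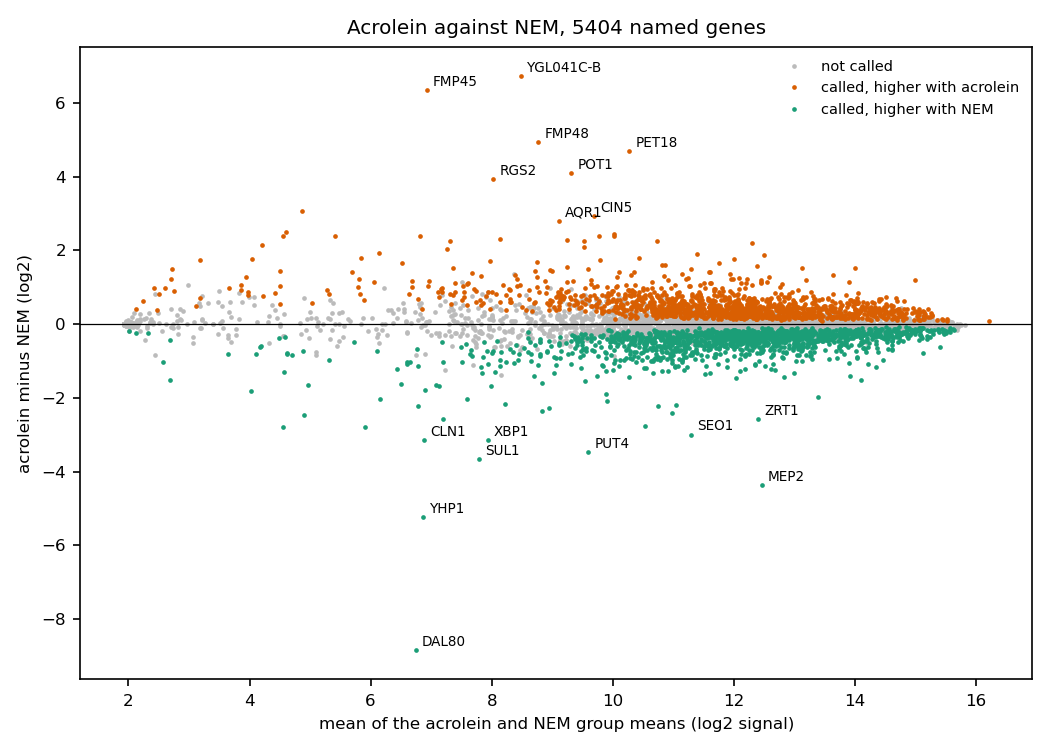
Difference in log2 signal, acrolein minus NEM, against the mean of both group means for 5404 named genes, 1 point per gene, coloured where called. DAL80 at -8.85 and YGL041C-B at 6.74 mark the ends, and most called genes lie within 1 log2 unit of 0.

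The gene furthest apart was DAL80, a GATA-type repressor of genes for poor nitrogen sources. It read 2.41, 2.02, 2.41 and 2.46 with acrolein and 10.85, 11.13, 10.98 and 11.72 with NEM. All acrolein arrays were near the lowest value of the file, whereas the NEM arrays lay near the controls, at 11.70 to 12.42, and H2O2 at 10.58 to 11.82. The level with NEM was at least 65.0-fold higher (difference -8.85 ± 0.27 SE, n = 4 per group, adjusted p = 1.37e-10).

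Most other tested nitrogen genes were also higher with NEM. MEP2, the high-affinity ammonium permease, read 10.03, 10.90, 9.67 and 10.50 with acrolein and 14.46, 14.67, 14.57 and 14.89 with NEM, a difference of -4.37 ± 0.19 (adjusted p = 4.19e-09). The control stood above both, at 15.25 to 15.31. PUT4, the proline permease, read 6.78, 9.20, 6.95 and 8.52 with acrolein against 10.53, 11.13, 11.31 and 12.36 with NEM, so acrolein replicates scattered over more than 2 log2 units and still lay below all NEM arrays (-3.47 ± 0.50, adjusted p = 0.000113). DAL3, ureidoglycolate lyase of allantoin breakdown, differed by -2.18 ± 0.15 (adjusted p = 2.02e-07). Of 25 tested nitrogen catabolite genes 16 were called higher with NEM and 4 higher with acrolein, and their median difference was -0.44. Among the 4 were UGA3, the activator of GABA-use genes, at 0.86 ± 0.12 and the allantoate permease DAL5 at 0.42 ± 0.10. Against the control, which both comparisons share, 21 of the 25 were lower with acrolein (36.9% of all probe sets were) and 15 with NEM (32.2% of all).

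Sulfate uptake genes stood higher with NEM, above the control. SUL1 and SUL2 encode the sulfate permeases of the plasma membrane. SUL1 read 6.24, 5.94, 4.98 and 6.69 with acrolein and 9.10, 9.53, 10.14 and 9.74 with NEM (-3.67 ± 0.33, adjusted p = 2.19e-06). The control lay between them, at 7.10 to 7.63, so NEM arrays were above and acrolein arrays below it. SUL2 read 8.72, 9.32, 8.95 and 9.60 with acrolein, against 8.45 to 9.09 in the control, and 11.95, 12.21, 11.68 and 11.81 with NEM (-2.77 ± 0.19, adjusted p = 2.61e-07). SEO1, a permease-family gene, showed the same order, with 9.22 to 10.26 after acrolein, 12.50 to 13.21 after NEM and 9.15 to 10.59 in the control (7.98-fold, adjusted p = 8.62e-06).

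MET3, ATP sulfurylase, which activates sulfate, read 12.22, 12.55, 12.40 and 12.46 with acrolein and 14.20, 14.54, 14.44 and 14.37 with NEM, so the groups lay about 4-fold apart with no overlap (3.94-fold, -1.98 ± 0.08, adjusted p = 2.38e-09). MET8, which makes the siroheme cofactor of sulfite reductase, differed by -2.23 ± 0.21, and MET16, PAPS reductase, by -0.76 ± 0.06 (adjusted p = 2.74e-06 and 4.25e-07). MET16 was above its control of 12.13 to 12.20 in both groups, at 13.73 to 13.92 with acrolein and 14.44 to 14.63 with NEM. Of 36 tested genes for sulfate assimilation, methionine and cysteine, 23 were called higher with NEM and 6 higher with acrolein, with a median of -0.25. Against the shared control 25 of the 36 were higher with acrolein (27.2% of all probe sets were) and 29 with NEM (26.4% of all). Lower were 3 with acrolein (36.9% of all) and 1 with NEM (32.2% of all), and the medians were 0.44 and 0.83. The 23 became 19 without acrolein replicate 1. The 6 were not steady: 3 were called without acrolein replicate 1 or without acrolein replicate 3, and 2 without NEM replicate 2 or without NEM replicate 4. HOM3, aspartate kinase at the head of the methionine and threonine branch, at 0.50 ± 0.16 and SAM4, a homocysteine methyltransferase, at 0.42 ± 0.16 lost their call in some of these fits (adjusted p up to 0.0553 and 0.14). MET17, the enzyme that takes up sulfide, is deleted in this strain.

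Genes of the zinc regulon were divided. Of 14 tested, 6 were called higher with NEM and 5 higher with acrolein. ZRT1, the high-affinity zinc transporter, read 11.16, 11.20, 11.19 and 10.89 with acrolein, within or just above the control range of 10.87 to 11.15, and 13.35, 13.80, 13.59 and 13.96 with NEM. The difference was -2.57 ± 0.11 (adjusted p = 4.19e-09), or 5.92-fold. The zinc-responsive activator ZAP1 was at 10.83 to 11.10 with acrolein and 12.12 to 12.42 with NEM (-1.33 ± 0.07, adjusted p = 2.34e-08), and its control was 10.49 to 10.59. The low-affinity transporter ZRT2 differed by -0.93 ± 0.06 and ZRT3, which releases zinc from the vacuole, by -0.75 ± 0.08. IZH4 and IZH2, membrane proteins of zinc homeostasis, were 1.33 ± 0.35 and 0.81 ± 0.17 higher with acrolein. Acrolein replicate 1 gave the highest IZH4 value, 11.89 against 10.32 to 10.94, and without it and NEM replicate 4 the IZH4 difference was 0.87 (adjusted p = 0.056).

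Iron genes were called in both directions, at shares not far from those of all probe sets. FRE5, of the ferric reductase family, read 2.28, 3.17, 4.02 and 3.18 with acrolein, all within the background, and 5.05, 6.33, 6.24 and 6.18 with NEM. It was at least 1.74-fold higher with NEM, from a control of 8.88 to 9.44. TIS11, which marks mRNAs for decay in iron shortage, was at 8.65 to 9.24 with acrolein and 10.71 to 11.18 with NEM, both below its control of 12.83 to 13.41 (-2.08 ± 0.15, adjusted p = 3.8e-07). The copper ATPase CCC2 and the copper chaperone ATX1, which supply copper to the iron oxidase, differed by -0.97 ± 0.16 and -0.62 ± 0.11. FRE4 and FRE3, reductases linked to siderophore use, were higher with acrolein, by 1.71 ± 0.20 and 0.72 ± 0.10. Over the 30 tested genes 7 were called higher with acrolein and 10 higher with NEM, shares of 23.3% and 33.3% beside 24.1% and 25.8% of all probe sets.

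**Figure D3:**
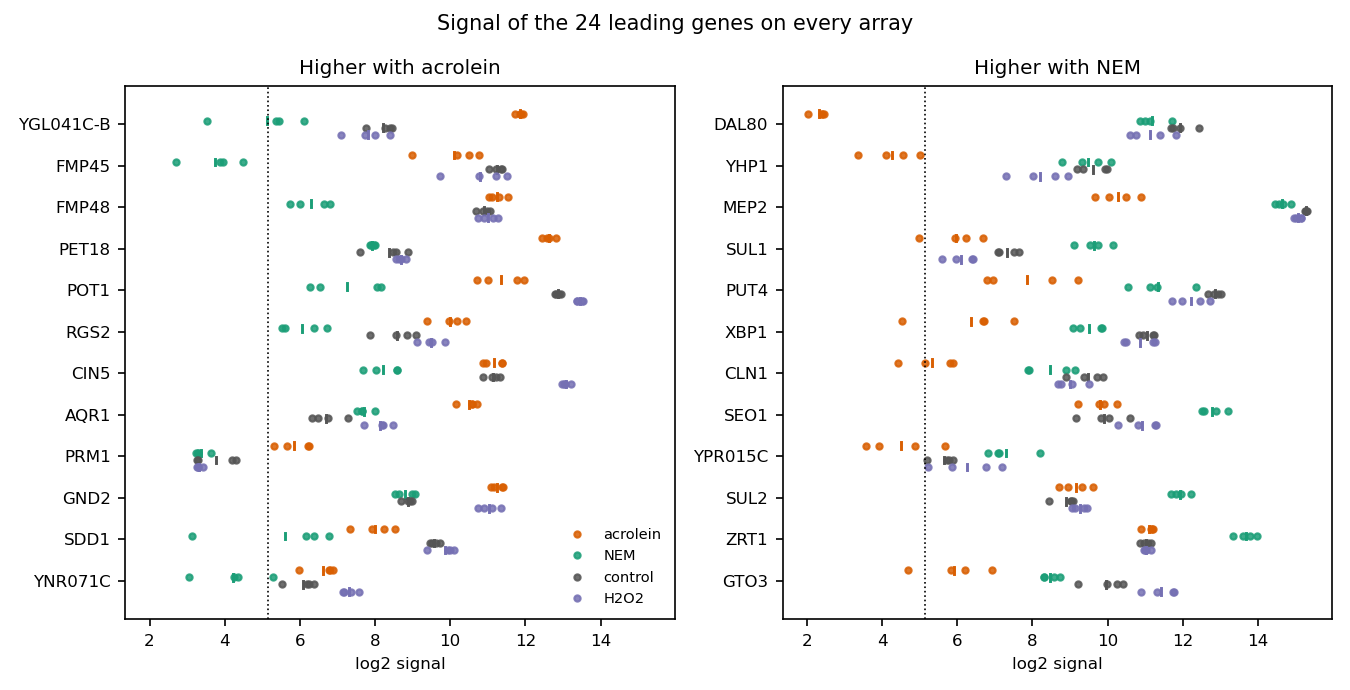
Log2 signal on every array for the 12 genes with the largest called difference in each direction among those whose acrolein and NEM arrays do not overlap and with all arrays of at least 1 of both groups above background, with tick marks for group means and a dotted line at the background of 5.15. DAL80 and YHP1 lie under that line on all acrolein arrays and FMP45 and PRM1 on all NEM arrays, while the control position differs from gene to gene.

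Among the genes higher with acrolein, YGL041C-B, an uncharacterised open reading frame, led. It read 11.85, 11.94, 11.88 and 11.72 with acrolein and 5.45, 5.36, 6.11 and 3.53 with NEM (6.74 ± 0.43, adjusted p = 1.48e-07). The control arrays lay in between, at 7.77 to 8.45, so the gene was above the control with acrolein and below it with NEM. NEM replicate 4 was within the background.

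FMP45, a membrane protein gene of the SUR7 family, read 8.98, 10.75, 10.19 and 10.49 with acrolein and 2.71, 4.48, 3.86 and 3.95 with NEM. All NEM arrays were within the background, so the level with acrolein was at least 31.0-fold higher (adjusted p = 3.03e-07), and the control was above both at 11.02 to 11.37. FMP48, a putative protein kinase gene, was at 11.03 to 11.53 with acrolein, at 10.69 to 11.07 in the control and at 5.73 to 6.79 with NEM (4.94 ± 0.21, adjusted p = 3.47e-09). For this gene the NEM arrays were the ones away from the control. RGS2, a regulator of G-protein signalling, read 9.37, 10.43, 10.17 and 9.98 with acrolein and 6.37, 5.61, 6.72 and 5.51 with NEM (3.93 ± 0.32, adjusted p = 1.06e-06), with the control between them at 7.87 to 9.10.

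PET18, a gene of the TenA family, read 12.59, 12.82, 12.43 and 12.63 with acrolein and 7.96, 7.86, 7.99 and 7.90 with NEM, the latter within the control range of 7.60 to 8.87 (4.69 ± 0.20, adjusted p = 3.23e-09). Its neighbours in the gene order of chromosome III differed in the same direction. MAK31, a subunit of an N-terminal acetyltransferase, differed by 1.66 ± 0.14 and HTL1, of the RSC chromatin remodelling complex, by 2.38 ± 0.16 (adjusted p = 1.06e-06 and 2.04e-07). These neighbours were chosen for their position beside a leading gene.

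Of 24 tested multidrug and polyamine pumps 9 were called higher with acrolein, a share of 37.5% beside 24.1% of all probe sets, 3 higher with NEM, and 12 were not called. AQR1, a drug and proton antiporter of the plasma membrane, read 10.58, 10.58, 10.70 and 10.16 with acrolein and 7.65, 7.53, 8.00 and 7.65 with NEM, both above the control of 6.31 to 7.27 (2.80 ± 0.21, adjusted p = 3.8e-07). TPO1, a polyamine exporter, read 12.28, 12.63, 12.52 and 11.97 with acrolein against 10.19, 10.39, 10.59 and 10.59 with NEM and 9.42 to 9.65 in the control (1.91 ± 0.13, adjusted p = 2.09e-07). Its relative TPO4 differed by 1.33 ± 0.10. YOR1, an ABC transporter, was lower with acrolein, at -0.49 ± 0.06. One of the 9, DTR1, was within the background in both groups and has no fold. FLR1, a pump under Yap1, was among the 3.

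Polyamine synthesis and methionine salvage genes were mostly higher with acrolein, with 9 of 13 tested genes called higher with acrolein, 1 higher with NEM and a median of 0.34. The largest were SPE4, spermine synthase, at 0.79 ± 0.18, SPE2, S-adenosylmethionine decarboxylase, at 0.55 ± 0.09 and the polyamine oxidase FMS1 at 0.51 ± 0.06. The member in the other direction, ADI1 of methionine salvage, was 0.15 ± 0.05 lower with acrolein and lost its call without acrolein replicate 1 (-0.11, adjusted p = 0.0507).

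By their medians, Yap1 targets of the oxidant and electrophile defence differed little between the compounds beside their distance from the control. The median was -0.16 between the compounds, and 1.58 with acrolein and 1.83 with NEM against the control. This did not hold for glutathione genes, with -0.22 between the compounds, and -0.11 with acrolein and 0.13 with NEM against the control. OYE3, an NADPH oxidoreductase that reduces unsaturated carbonyls, read 15.37, 15.47, 15.36 and 15.68 with acrolein and 15.67, 15.64, 15.55 and 15.55 with NEM, against 6.25 to 7.28 in the control. The groups overlapped, and the difference of -0.13 ± 0.16 did not pass (95% interval -0.49 to 0.22, adjusted p = 0.527). Its relative OYE2 was at 15.24 to 15.43 with acrolein and 15.56 to 15.67 with NEM (-0.28 ± 0.05, adjusted p = 0.000609). Saturation at signals this high was not tested.

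Of 20 tested Yap1 targets 11 were called higher with NEM and 0 higher with acrolein, with a median of -0.16. The 11 became 9 without acrolein replicate 1. The 0 was 1 at unadjusted p under 0.05, 2 after quantile normalization and 1 in each of 3 other fits. Against the shared control, 18 of the 20 were higher with acrolein and 20 with NEM, beside 27.2% and 26.4% of all probe sets. FRM2, a nitroreductase-like gene, read 11.68, 11.62, 11.74 and 11.78 with acrolein and 12.63, 12.43, 12.55 and 12.45 with NEM (-0.81 ± 0.22, adjusted p = 0.00906), and its control arrays were within the background. SRX1, sulfiredoxin, differed by -0.52 ± 0.09, FLR1 by -0.35 ± 0.07 and YCF1, the vacuolar glutathione conjugate pump, by -0.32 ± 0.06. TRX2, thioredoxin, differed by -0.19 ± 0.03. Not called were GSH1, which starts glutathione synthesis, at -0.17 ± 0.08 (adjusted p = 0.0825), the glutathione transferase GTT2 at -0.16 ± 0.07 (adjusted p = 0.0728) and thioredoxin reductase TRR1 at 0.03 ± 0.09 (adjusted p = 0.798). Their 95% intervals reached from -0.34 to 0.00, -0.32 to -0.01 and -0.16 to 0.22. GSH1 passed when the 2 groups were fitted alone with the replicate block (adjusted p = 0.0193), and GTT2 without acrolein replicate 2 or NEM replicate 3 (adjusted p = 0.0489 and 0.0424).

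YAP1 itself read 12.17, 12.81, 12.55 and 12.98 with acrolein and 13.32, 13.51, 13.29 and 13.70 with NEM. Acrolein arrays overlapped the control range of 12.39 to 12.74, and every NEM array lay above it (-0.83 ± 0.16, adjusted p = 0.000834). HSF1, the heat shock factor, was at 11.02 to 11.45 with acrolein and 11.93 to 12.36 with NEM (-0.90 ± 0.14), and the multidrug regulators YRR1 and PDR3 differed by -0.72 ± 0.08 and -0.71 ± 0.08. The opposite held for CIN5, a relative of Yap1, which read 10.96, 11.38, 11.39 and 10.88 with acrolein, beside 10.87 to 11.34 in the control, and 8.59, 8.01, 8.57 and 7.68 with NEM (2.94 ± 0.19, adjusted p = 1.79e-07). MSN4, a general stress factor, was 0.88 ± 0.12 higher with acrolein. RPN4, the activator of proteasome genes, did not pass at 0.01 ± 0.04 (95% interval -0.07 to 0.10, adjusted p = 0.814). Of 20 tested regulators 4 were called higher with acrolein and 7 higher with NEM.

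A pair of carbonyl reductase-like genes was higher with acrolein. YCR102C, a quinone oxidoreductase-like open reading frame, read 14.71, 14.81, 14.65 and 14.91 with acrolein and 13.37, 13.10, 13.26 and 13.26 with NEM, from 7.89 to 8.51 in the control (1.52 ± 0.12, adjusted p = 7.12e-07). Its relative YLR460C read 13.84, 13.65, 13.79 and 13.86 against 12.75, 12.58, 12.66 and 12.40, from 4.96 to 6.10 (1.19 ± 0.20, adjusted p = 0.00038). These open reading frames are alike in sequence, and how far the probes tell them apart was not tested. Of 24 tested enal, quinone and carbonyl oxidoreductases 5 were called higher with acrolein and 9 higher with NEM, the latter 5 without acrolein replicate 1, without acrolein replicate 3 or without NEM replicate 4. The butanediol dehydrogenase BDH1 and the quinone reductase ZTA1 were among the 9, at -0.34 ± 0.05 and -0.29 ± 0.08, and ZTA1 lost its call when the 2 groups were fitted alone (adjusted p = 0.0585).

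Glutathione genes were mostly higher with NEM, 13 of 24 tested, against 3 higher with acrolein and a median of -0.22. GTO3, an omega-class glutathione transferase, read 4.69, 5.84, 6.21 and 6.92 with acrolein and 8.30, 8.31, 8.57 and 8.73 with NEM, both below the control of 9.22 to 10.40 (-2.56 ± 0.39, adjusted p = 0.000177). Its relative ECM4 was above its control of 12.42 to 12.77 in both groups and differed by -0.62 ± 0.09. GSH2, the second enzyme of glutathione synthesis, went the other way: it read 13.04, 13.37, 13.22 and 13.42 with acrolein and 12.14, 12.31, 12.18 and 12.37 with NEM, the latter below the control of 12.93 to 13.13 (1.01 ± 0.08, adjusted p = 6.81e-07). The glyoxalases were divided, GLO2 at 0.70 ± 0.09 and GLO4 at -0.57 ± 0.10.

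GRX4, a glutaredoxin that takes part in iron sensing, read 12.33, 11.98, 11.99 and 11.97 with acrolein and 13.15, 13.32, 13.38 and 13.36 with NEM (-1.24 ± 0.09, adjusted p = 3.4e-07). Its close relative GRX3 was 0.44 ± 0.06 higher with acrolein (adjusted p = 8.99e-05), so this pair differed in opposite directions. In all 4 of 8 glutaredoxins were called higher with NEM and 1 higher with acrolein. Of 13 thioredoxin, peroxiredoxin and methionine sulfoxide reductase genes 8 were called higher with NEM and 1 higher with acrolein, with the mitochondrial thioredoxin TRX3 at -0.87 ± 0.12 and the peroxiredoxin TSA2 at -0.79 ± 0.08. Of 6 catalase, superoxide dismutase and cytochrome c peroxidase genes 3 were higher with NEM, among them SOD2 at -0.35 ± 0.07. Both catalases were higher with acrolein, CTA1 by 0.80 ± 0.20 and CTT1 by 0.65 ± 0.11, although CTA1 missed the threshold with the 2 groups alone and the replicate block (adjusted p = 0.0505).

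Most proteasome subunit genes were higher with NEM, by small amounts. Of 33 tested core and regulatory particle genes 27 (81.8%) were called higher with NEM and 1 higher with acrolein, with a median of -0.24. PUP1, a catalytic core subunit, read 12.59, 12.98, 12.62 and 12.91 with acrolein and 13.54, 13.68, 13.56 and 13.68 with NEM, with the control between them at 13.04 to 13.32 (-0.84 ± 0.09, adjusted p = 1.18e-05). The exception, the core subunit PRE9, read 14.26, 14.23, 14.38 and 14.23 with acrolein and 13.72, 13.66, 13.69 and 13.64 with NEM (0.60 ± 0.05, adjusted p = 6.16e-07). Against the shared control 22 of the 33 were higher with NEM (26.4% of all probe sets were) and 4 with acrolein (27.2% of all), and 2 were lower with NEM (32.2% of all) and 9 with acrolein (36.9% of all). Among 25 assembly, Rpn4 and ubiquitin shuttling genes 13 were called higher with NEM, led by the Cdc48-binding CUZ1 at -0.93 ± 0.11 and the ubiquitin shuttle DSK2 at -0.80 ± 0.16. The 5 called higher with acrolein included the ubiquitin-conjugating enzyme UBC5 at 1.22 ± 0.16 and the assembly chaperone NAS6 at 1.06 ± 0.08, both below the control in both groups.

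Heat shock chaperones did not share a direction. Of 32 tested, 9 were called higher with acrolein and 5 higher with NEM, shares of 28.1% and 15.6%, and the median was 0.05. CUR1, which sorts misfolded proteins, was 0.80 ± 0.14 higher with acrolein, the Hsp90 cochaperone AHA1 0.69 ± 0.07 and the mitochondrial Hsp40 MDJ1 0.61 ± 0.05. The Hsp70 gene SSA4 was 0.22 ± 0.06 higher with acrolein (adjusted p = 0.00565) and below its control in both groups. The small heat shock gene HSP26 was higher with NEM, at -0.57 ± 0.05. HSP12 read 15.11 to 15.44 with acrolein and 14.78 to 15.28 with NEM and did not pass (0.22 ± 0.09, adjusted p = 0.0643), although it did with the replicate block (adjusted p = 0.0442) and without acrolein replicate 1, NEM replicate 2 or NEM replicate 3 (adjusted p 0.0097 to 0.047).

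**Figure D4:**
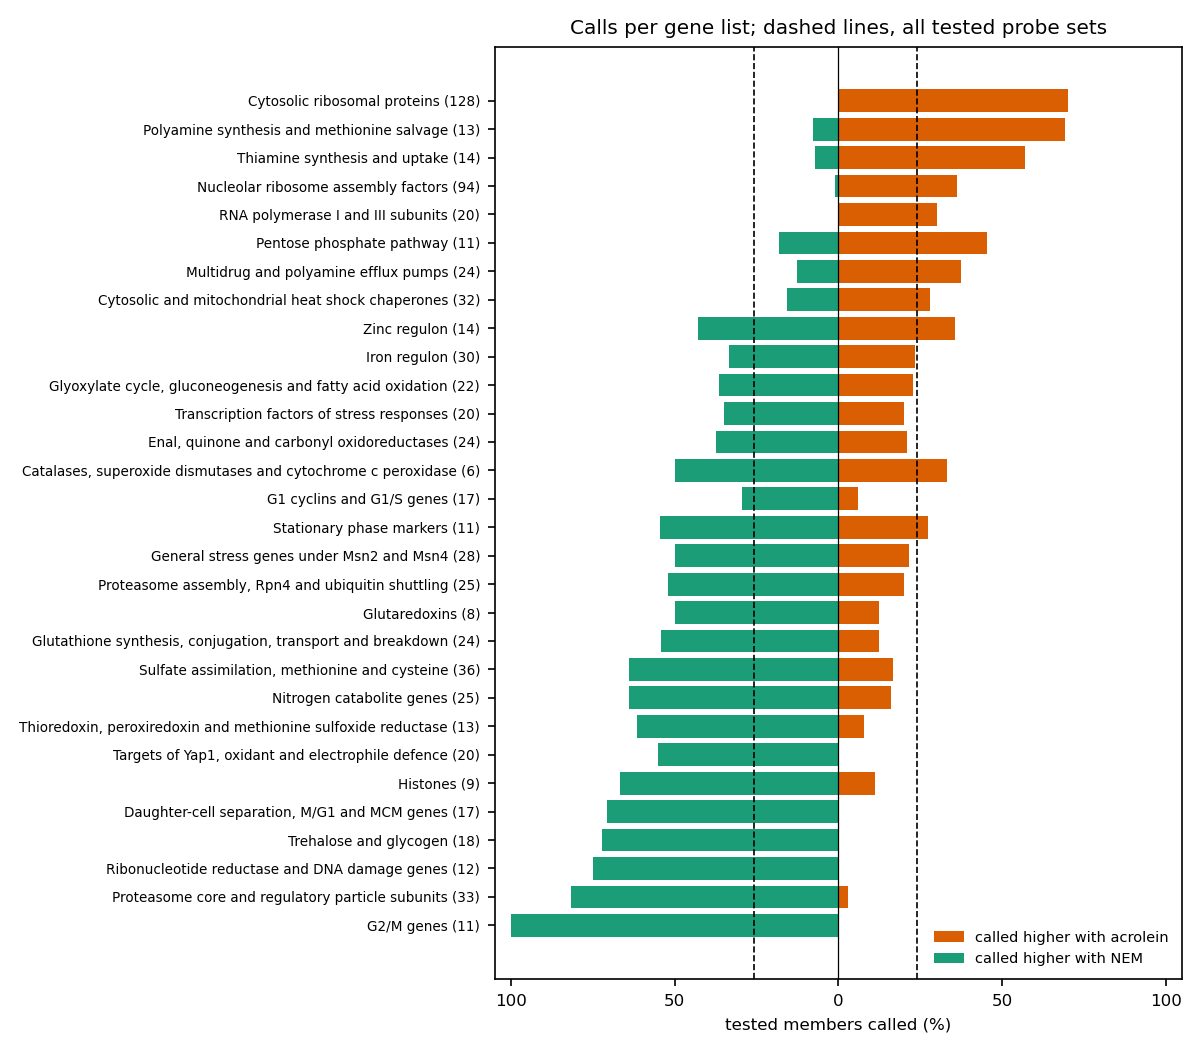
Share of the tested members of each gene list called higher with acrolein (right) or with NEM (left), with the number tested in parentheses and dashed lines at 24.1% and 25.8%, the shares over all tested probe sets. Ribosomal protein genes reach 70.3% to the right and G2/M genes 100% to the left.

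Cytosolic ribosomal proteins were the list with the most genes called higher with acrolein. Of 128 tested cytosolic ribosomal protein genes 90 (70.3%) were called higher with acrolein and 0 higher with NEM, with a median of 0.34. RPL27B read 13.55, 13.36, 13.86 and 13.31 with acrolein and 12.78, 12.67, 12.94 and 12.02 with NEM (0.92 ± 0.18, adjusted p = 0.00123), and RPS0B 13.99, 14.08, 14.28 and 13.84 against 13.44, 13.17, 13.51 and 12.84 (0.81 ± 0.15, adjusted p = 0.000609). NEM replicate 4 was the lowest array for both. Against the shared control the list's median was 0.32 with acrolein and 0.01 with NEM. The count was 75 without acrolein replicate 1 and 46 without that array and NEM replicate 4. Of the genes higher with NEM, 1 passed at unadjusted p under 0.05, and 1 was called without NEM replicate 1. Most of these genes have a near-identical copy that shares probes or signal, so single members are uncertain.

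Of 94 tested nucleolar assembly factors, which process ribosomal RNA, 34 were called higher with acrolein and 1 higher with NEM, with a median of 0.46. The list stood above the shared control with both compounds, with medians of 1.22 with acrolein and 0.74 with NEM. Higher than the control were 87 of the 94 with acrolein (27.2% of all probe sets were) and 69 with NEM (26.4% of all). With either compound 0 were lower (36.9% and 32.2% of all). NIP7, a large-subunit factor, read 9.74, 9.03, 9.98 and 9.13 with acrolein and 8.41, 8.09, 9.29 and 7.43 with NEM. Replicates 1 and 3 were the higher arrays in both groups, and the groups overlapped (1.16 ± 0.37, adjusted p = 0.0196). UTP6, of the small-subunit processome, differed by 1.04 ± 0.32. The exception was the helicase gene DBP10, at 10.65, 10.04, 10.53 and 10.01 with acrolein and 11.40, 10.98, 11.37 and 11.04 with NEM (-0.89 ± 0.19, adjusted p = 0.00213).

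The count of assembly factors changed with the arrays left out and with the replicate block. It was 55 with the replicate block, 70 with the 2 groups alone and the block, and 18 with the 2 groups alone. With 1 acrolein or NEM array left out it ran from 14 to 46: it was 16 without acrolein replicate 1, 17 without acrolein replicate 3, 14 without NEM replicate 2, 16 without NEM replicate 4 and 46 without acrolein replicate 2. Without acrolein replicate 1 and NEM replicate 4 it was 4. The fits that left arrays out had no replicate block, so some acrolein and NEM arrays in them had no partner. How far this moved the counts was not tested. NIP7 lost its call without acrolein replicate 1 or 3 and without NEM replicate 2 or 4 (adjusted p 0.0511 to 0.0651), and UTP6 without NEM replicate 4 (0.82, adjusted p = 0.0534). The median over the list was 0.42, 0.35, 0.46 and 0.57 within pairs 1 to 4. Acrolein replicate 1 had the highest ribosomal RNA signal, at 15.48. Replicate 4 had the lowest of its group with both compounds, at 9.20 with acrolein and 9.23 with NEM. Whether these signals bear on the count was not tested. With each array's ribosomal RNA signal as a covariate the count was 44, and with its 3′ minus 5′ signal, a fit chosen after seeing the data, it was 20. Subunits of RNA polymerases I and III gave 6 of 20 higher with acrolein and 0 higher with NEM (0 at unadjusted p under 0.05), led by RPC25 at 0.85 ± 0.18. That 6 was 12 with the replicate block, 10 without acrolein replicate 2 or NEM replicate 3, 3 without NEM replicate 2 or NEM replicate 4 and 1 without acrolein replicate 1 and NEM replicate 4. Without acrolein replicate 1 alone it was 4. Against the shared control the median of the polymerase list was 0.54 with acrolein and 0.34 with NEM.

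Mitotic genes were lower with acrolein. All 11 tested G2/M genes were called higher with NEM (25.8% of all probe sets were), with a median of -0.98. For 10 of them all NEM arrays lay above all acrolein arrays, beside 21.6% of all probe sets. CLB2, the main mitotic cyclin, read 6.92, 7.10, 7.41 and 7.14 with acrolein and 8.97, 9.59, 8.95 and 9.69 with NEM, close to the control of 9.54 to 9.65 (-2.16 ± 0.19, adjusted p = 2.06e-06). CDC5, the polo kinase, read 9.90, 10.62, 9.96 and 10.27 with acrolein and 11.22, 11.57, 11.34 and 11.67 with NEM (-1.26 ± 0.14, adjusted p = 1.51e-05). The kinase genes KIN3 and ALK1 differed by -1.28 ± 0.17 and -1.17 ± 0.12. Against the shared control all 11 were lower with acrolein (36.9% of all probe sets were), and 3 were lower and 1 higher with NEM (32.2% and 26.4% of all). The list's median was -0.74, -0.94, -1.04 and -1.18 within pairs 1 to 4. The count stayed at 11 without acrolein replicate 1 and without that array and NEM replicate 4. It was 9 with the 2 groups alone and the replicate block.

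Most genes of the M/G1 list showed the same direction. Of 17 tested daughter-separation, M/G1 and MCM genes 12 were called higher with NEM and 0 higher with acrolein (0 at unadjusted p under 0.05 and 1 called without acrolein replicate 1), with a median of -0.44. DSE4 and SCW11, glucanase-family genes of daughter cell separation, differed by -1.16 ± 0.16 and -0.88 ± 0.12, and the helicase subunit MCM2 by -0.64 ± 0.09. YHP1, a homeobox repressor that acts at M/G1 genes, read 3.36, 4.10, 4.55 and 5.01 with acrolein, all within the background, and 8.79, 9.75, 9.31 and 10.10 with NEM. It was at least 20.3-fold higher with NEM (adjusted p = 7.05e-07), whose arrays spanned the control range of 9.19 to 9.98.

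CLN1, a G1 cyclin, read 4.42, 5.80, 5.15 and 5.89 with acrolein and 7.91, 8.89, 7.89 and 9.13 with NEM, from 8.90 to 9.88 in the control (-3.14 ± 0.37, adjusted p = 2.33e-05). SWI4, the DNA-binding subunit of the G1 factor SBF, read 7.88, 9.27, 8.66 and 9.94 against 10.20, 11.02, 10.80 and 11.36 (-1.91 ± 0.37, adjusted p = 0.00104). XBP1, a stress-induced repressor of cyclin genes, was also lower with acrolein, at 4.52, 7.51, 6.69 and 6.72 against 9.09, 9.84, 9.27 and 9.83 (-3.15 ± 0.48, adjusted p = 0.000169). Replicate 1 was the lowest acrolein array for all 3 of these genes. The whole list did not share this direction: of all 17 tested G1 cyclin and G1/S genes 11 were not called. Called higher with NEM were 5 (29.4%, beside 25.8% of all probe sets) and higher with acrolein 1 (5.9%, beside 24.1%), and the median was -0.10.

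Histone genes gave 6 of 9 higher with NEM and 1 higher with acrolein, with a median of -0.40. HHT1, a histone H3 gene, read 13.68, 14.11, 13.94 and 13.84 with acrolein and 14.66, 14.60, 14.49 and 14.35 with NEM, both below the control of 14.95 to 15.10 (-0.63 ± 0.09, adjusted p = 7.73e-05). The core histone genes come in near-identical pairs, so single members are uncertain. HTZ1, the H2A.Z variant, was the member higher with acrolein, at 0.17 ± 0.05. Its call ended without acrolein replicate 1 and NEM replicate 4 (0.11, adjusted p = 0.0533). It also ended with the 2 groups fitted alone, without or with the replicate block (adjusted p = 0.0634 and 0.067).

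Of 12 tested ribonucleotide reductase and DNA damage genes 9 were called higher with NEM and 0 higher with acrolein (0 at unadjusted p under 0.05), with a median of -0.27. RAD52, of recombination repair, was at 10.61 to 11.19 with acrolein and 11.53 to 11.78 with NEM (-0.83 ± 0.12), the glycosylase MAG1 differed by -0.71 ± 0.10 and the checkpoint kinase DUN1 by -0.66 ± 0.14. Without NEM replicate 2 the count was 5, as it was without acrolein replicate 1 and NEM replicate 4. Without acrolein replicate 1 alone it was 6. RNR3, the damage-induced reductase subunit, was above its control of 8.60 to 9.46 in both groups. Its difference of -0.62 ± 0.23 (adjusted p = 0.0376) lost the call without acrolein replicate 1, 2 or 3 and without NEM replicate 2 or 4 (adjusted p 0.0517 to 0.117).

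**Figure D5:**
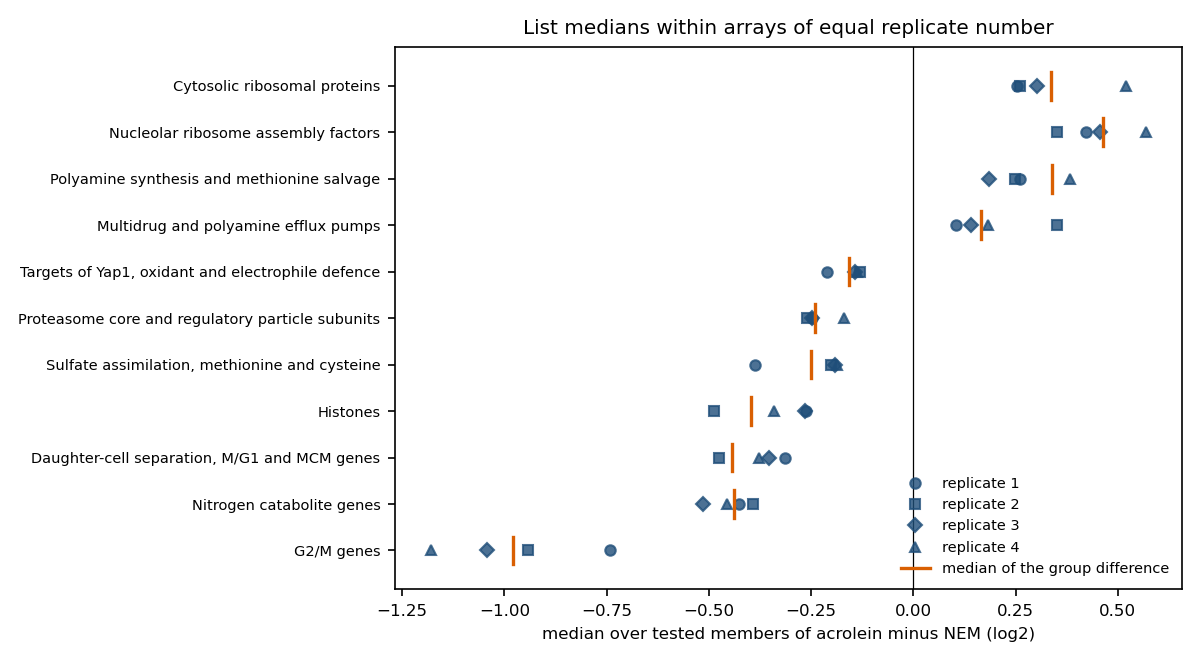
Median of acrolein minus NEM (log2) over the tested members of 11 gene lists within each pair of arrays of equal replicate number, 1 symbol per pair, with the median of the group difference as a bar. Each of these 11 lists keeps 1 side of 0 in all 4 pairs, and G2/M genes lie furthest out, at -0.74 to -1.18. The 11 were picked from the lists described, and others crossed 0, such as heat shock chaperones with -0.03 in pair 1 and 0.11 in pair 4.

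Carbon genes were called in both directions. POT1, the peroxisomal thiolase of fatty acid oxidation, read 10.72, 11.79, 10.99 and 11.95 with acrolein and 6.27, 6.54, 8.17 and 8.06 with NEM, both below the control of 12.78 to 12.94 (4.10 ± 0.39, adjusted p = 3.81e-06). POX1, acyl-CoA oxidase, which acts in the same pathway, read 3.71, 8.22, 5.37 and 8.31 with acrolein and 3.15, 3.08, 3.92 and 3.18 with NEM. All NEM arrays and acrolein replicate 1 were within the background, so the groups overlapped, and the bound was at least 2.39-fold from a mean over widely scattered arrays (adjusted p = 0.00618, and 0.0528 when the 2 groups were fitted alone).

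Members in the opposite direction included 3 carrier genes. SFC1, a mitochondrial succinate and fumarate carrier, read 8.45, 10.70, 9.91 and 10.04 with acrolein and 11.47, 12.38, 12.43 and 12.45 with NEM (-2.41 ± 0.39, adjusted p = 0.000261). The acetate transporter gene ADY2 differed by -1.42 ± 0.23 and the lactate permease JEN1 by -1.32 ± 0.13, and all 3 were below the control in both groups. Of 22 tested genes of the glyoxylate cycle, gluconeogenesis and fatty acid oxidation 5 were called higher with acrolein and 8 higher with NEM. These are shares of 22.7% and 36.4%, beside 24.1% and 25.8% of all probe sets. The 8 became 5 without acrolein replicate 1, without acrolein replicate 3, without NEM replicate 2 or without NEM replicate 4, and 3 without acrolein replicate 1 and NEM replicate 4.

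In the pentose phosphate pathway 5 of 11 genes were called higher with acrolein and 2 higher with NEM, and the 5 became 3 without acrolein replicate 1 and NEM replicate 4. GND2, the minor 6-phosphogluconate dehydrogenase, read 11.16, 11.37, 11.08 and 11.39 with acrolein and 8.52, 8.64, 8.98 and 9.06 with NEM, the latter spanning the control of 8.69 to 8.97 (2.45 ± 0.14, adjusted p = 7.65e-08). On the H2O2 arrays it was at 10.73 to 11.36, near the acrolein level. ZWF1, glucose-6-phosphate dehydrogenase, which opens the pathway, was higher with NEM, at 14.80 to 15.20 against 14.12 to 14.62 (-0.69 ± 0.12, adjusted p = 0.000492). TKL2, the minor transketolase, was within the background on all NEM arrays and at least 1.51-fold higher with acrolein, where replicate 3 was within the background too.

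Reserve carbohydrate genes were mostly higher with NEM, 13 of 18 tested against 0 higher with acrolein (0 at unadjusted p under 0.05), with a median of -0.27. GAC1, a regulatory subunit of the phosphatase that activates glycogen synthesis, differed by -1.54 ± 0.20, and GPH1, glycogen phosphorylase, was at 13.79 to 13.88 with acrolein, 14.40 to 14.60 with NEM and 14.80 to 14.94 in the control (-0.68 ± 0.05, adjusted p = 4.9e-07). Of 28 tested genes under Msn2 and Msn4 14 were called higher with NEM and 6 higher with acrolein, with a median of -0.13, and XBP1 and GND2 mark their ends. Of 11 stationary phase markers 6 were called higher with NEM, among them SPG4 at -1.10 ± 0.16, and 3 higher with acrolein, among them FMP45. The 6 became 3 without acrolein replicate 3, without NEM replicate 2 or without NEM replicate 4, and 2 without acrolein replicate 1 and NEM replicate 4.

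Thiamine genes gave 8 of 14 tested higher with acrolein and 1 higher with NEM, with a median of 0.24 and PET18 as the largest. THI4, which makes the thiazole of thiamine, was 0.79 ± 0.19 and THI21, a pyrimidine kinase gene, 0.69 ± 0.09 higher with acrolein, and the thiamine transporter THI7 differed by -0.57 ± 0.16 (adjusted p = 0.0106, and 0.0501 with the 2 groups alone). The 8 became 5 without acrolein replicate 2, without acrolein replicate 4 or without NEM replicate 2. THI73, 1 of the 8, was within the background in both groups and has no fold.

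The remaining leading genes were smaller or dimmer. SDD1 read 7.34, 8.52, 7.92 and 8.25 with acrolein and 6.15, 6.38, 6.77 and 3.14 with NEM, and its difference of 2.40 ± 0.60 was 1.57 without NEM replicate 4, which was within the background. With the 2 groups alone and the replicate block SDD1 lost its call (adjusted p = 0.0708). YNR071C, a putative epimerase gene, was at 5.97 to 6.89 with acrolein and 3.04 to 5.28 with NEM. PRM1, a membrane protein gene of mating cell fusion, was at least 1.63-fold higher with acrolein, with all NEM arrays within the background. YPR015C, a zinc-finger gene, was at 3.57 to 5.66 with acrolein and 6.81 to 8.20 with NEM (-2.80 ± 0.50). The actin gene ACT1 read 15.39 to 15.57 with acrolein and 15.51 to 15.64 with NEM and did not pass (-0.08 ± 0.05, 95% interval -0.19 to 0.03, adjusted p = 0.218).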

How the data were processed

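Per the labels, 8 µg of labelled RNA went on each Affymetrix Yeast Genome 2.0 array. The authors deposited log2 signals normalised with GCRMA, per the submitters' processing notes. The sources used here give no version. These log2 values were used as deposited, and array medians over tested probe sets ran from 11.85 to 11.92.

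Of 10928 probe sets, 213 controls, 1746 of another yeast species and 1 annotated to several genes were left out. RefSeq (R64) updated 12 symbols of the platform annotation. Among 5498 named probe sets, 49 gave way to a brighter one of the same gene, leaving 5449 genes. Constant probe sets (45 genes and 3100 of 3470 unnamed) hold no information for a test and were dropped, which the plan had not foreseen. The 5774 tested comprise 5404 genes and 370 unnamed.

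All 16 arrays entered a limma 3.58.1 model (R 4.3.3) with a mean per group (12 residual degrees of freedom, prior 1.16). The contrast was two-sided, adjusted by Benjamini-Hochberg, and called under 0.05. The model was run on simulated data with independent noise and no replicate effect, so that run cannot speak to the pairing of these arrays. Same-number acrolein and NEM arrays had residual correlations of 0.32 to 0.44, and other pairs -0.37 to 0.25, so the numbers pair the arrays by the data. The replicate block was an alternative, and the fits that left arrays out did not include it.

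The text names the 12 largest called differences per direction with non-overlapping arrays and a group above the background, up to 4 called members per described list and 2 of the other direction, and 19 fixed genes. THI73, DTR1 and SNO1 were within the background in both groups. MAK31 and HTL1 were chosen after their values were seen. The genes, lists and rule were written with earlier results of these data known, and the lists described were selected after their values were seen.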

Additional observations from a re-analysis of the deposited data

Results flagged for a closer look

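Among the named genes, in 18 of 396 groups of 4 arrays 1 array lay far from the other 3 by Dixon's criterion, and chance flags about 1 in 20 groups. With acrolein, replicate 1 stood above the others for GRX4 at 12.33 and DAL5 at 11.94 and below them for RPT5 at 12.92. Replicate 2 was the low array for DAL80 at 2.02 and for LCP5 at 8.04, replicate 3 for YNR071C at 5.97, and replicate 4 was high for HHO1 at 12.59 and low for ZRT1 at 10.89. With NEM, replicate 1 was low for TRX3 at 11.64, FRE5 at 5.05, SFC1 at 11.47 and UBC5 at 10.22. Replicate 2 was high for PRE1 at 14.49 and for ALD4 at 15.55. Replicate 3 was low for TRX2 at 15.21 and high for PRM1 at 3.63 and POX1 at 3.92, and replicate 4 was low for TKL2 at 3.11. DAL80, FRE5, PRM1, POX1 and TKL2 lie within the background there, where values have no firm order.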

How the results depend on the processing

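The count of 2884 called probe sets ran from 2397 (without NEM replicate 2) to 2884 with 1 array left out, was 3225 with the replicate block that uses the pairing, 2411 with the 2 groups fitted alone and 2243 without acrolein replicate 1 and NEM replicate 4. The block changed the call of 1 of 196 named genes, HSP12. It changed 23 of 70 list counts; of those above 0, only the counts of assembly factors and polymerase subunits higher with acrolein moved by over 1.5 times. It turned 2 counts of 0 into 1, for polymerase subunits and phosphate genes higher with NEM. Median centring gave 1324 higher with acrolein against 1583, and the fit without both arrays 1148 against 1095. Calls of at least 2-fold ran from 213 to 269. Of 188 called named genes 150 were called under every one of 25 alternatives, and 186 of 4896 values lost their call. Uncalled values changed sign with 1 array left out for RPN4 (-0.00595 to 0.0408) and TRR1 (-0.0123 to 0.0888). The ribosomal RNA difference ran from -0.38 to 1.72 and the 3′ minus 5′ difference from -0.0061 to 0.187 with 1 array left out. A 3′ minus 5′ covariate, chosen after seeing the data, gave 2650 calls, and a ribosomal RNA covariate 3067. The cause of these shifts was not tested. Signals within the background give folds only as bounds.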

Other observations

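Amino acid biosynthesis genes under Gcn4 were more often higher with acrolein, 19 of 40 tested against 8 higher with NEM, with a median of 0.14. HIS1, the first enzyme of histidine synthesis, was 0.70 ± 0.16 higher with acrolein (limma adjusted p = 0.00275), and CPA1, of arginine synthesis, 0.66 ± 0.06 higher (adjusted p = 2.19e-06) although below its control in both groups. LYS1, saccharopine dehydrogenase, was at 10.77 to 11.08 with acrolein and 11.97 to 12.29 with NEM, and the control lay between them at 11.64 to 11.86 (-1.12 ± 0.08, adjusted p = 4.18e-07). SER33, of serine synthesis, was above the control in both groups and differed by -0.73 ± 0.04. Without acrolein replicate 1 the counts were 15 and 8.

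Ergosterol and mevalonate genes gave 10 of 26 higher with acrolein and 3 higher with NEM, all differences under 0.5 in size. Phosphate regulon genes gave 4 of 15 higher with acrolein (7 without NEM replicate 1) and 0 higher with NEM (2 at unadjusted p under 0.05, and 1 called without acrolein replicate 4, NEM replicate 2 or NEM replicate 3). GIT1, a glycerophosphoinositol transporter, led at 0.94 ± 0.19. In the mating and pheromone list 5 of 17 were higher with acrolein and 1 higher with NEM. BAR1, the protease that degrades alpha factor, was at 11.91 to 12.21 with acrolein, 10.78 to 11.20 with NEM and 11.70 to 12.32 in the control (1.12 ± 0.15, adjusted p = 6.99e-05), and FUS1 differed by 0.82 ± 0.15. Among 9 aldehyde dehydrogenases the neighbouring stress genes ALD3 and ALD2 differed in opposite directions, at 1.12 ± 0.17 and -0.51 ± 0.07, and these genes are alike in sequence, so their separation by the probes is uncertain.

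Among the nearest 2 genes on each side of the 24 leading genes, 73 were tested and 43 (58.9%) were called, beside 49.9% of all probe sets. Of the 43, 25 differed in the direction of the leading gene and 18 in the opposite one. SGA1, next to XBP1, differed by -1.02 ± 0.15 and BNR1, next to POT1, by 1.24 ± 0.24, as their leading genes did. In the opposite direction, PAU8, near SEO1, differed by 1.25 ± 0.15 and AAH1, next to MEP2, by 0.88 ± 0.25. These 4 were chosen after their values were seen.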
